A study of Homo sapiens with 6 samples.

Results

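HMGA1, HMGA2, LIN28A, LIN28B, IGF2BP1, IGF2BP2 and IGF2BP3 are oncofetal genes around the let-7 microRNAs, and they were followed through an RNA-seq experiment on NUF2 knockdown. The 7 genes were picked by name with earlier results of these libraries known, and the spread of HMGA2 over replicate numbers was among the values that led to the choice. Of the 7 genes, 6 had a row among the 32985 genes of the deposited table, and LIN28B was not analysed here. A mean FPKM (fragments per kilobase of transcript, scaled to sequencing depth) of at least 1 over all libraries was reached by 4 of them, HMGA1, HMGA2, IGF2BP2 and IGF2BP3, as by 11725 genes in all.

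The cells were 8505C, an established line of anaplastic thyroid cancer (ATC), grown in RPMI-1640 with serum. They were transfected with control siRNA (siCtrl, 3 libraries) or with siRNA against NUF2 (siNUF2, 3 libraries), and the labels give 24 h for every library. The poly(A) RNA libraries held 61257859 to 69755291 counts on genes. No label states that the 3 libraries of a group came from separate cultures, so p-values measure the spread between these libraries, which may be technical. The study's methods give 1 siRNA sequence for NUF2, and all values come from 1 cell line.

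let-7 is a family of microRNAs that accumulates as cells differentiate and silences mRNAs through sites in their 3′ UTRs. HMGA1 and HMGA2 encode architectural chromatin proteins that bind AT-rich DNA in the minor groove, and HMGA2 is a classic let-7 target. LIN28A and LIN28B bind let-7 precursors and block their maturation, and are let-7 targets in turn. IGF2BP1, IGF2BP2 and IGF2BP3 bind mRNAs and affect their stability, transport and translation. Most of these genes are high in the embryo, fall in most adult tissues and return in many cancers. MicroRNAs themselves were not measured, since the libraries were made from poly(A) RNA.

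The mature sequences of the family (RefSeq, GRCh38.p14) show what its members share. Capitals mark the seed, positions 2 to 8, which pairs with the target. They are shown because 1 seed serves the whole family:
let-7a-5p: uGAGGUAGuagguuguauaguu
let-7b-5p: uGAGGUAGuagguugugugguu
let-7d-5p: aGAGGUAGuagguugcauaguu
let-7e-5p: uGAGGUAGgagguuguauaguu
let-7g-5p: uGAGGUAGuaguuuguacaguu
miR-98-5p: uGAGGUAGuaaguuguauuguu
The 9 mature forms of the family, which also include let-7c, let-7f and let-7i, had the same seed, so 1 word, CTACCTC, is the 7-base site for all of them. let-7a-5p came from 3 loci, let-7f-5p from 2, and each of the others from 1.

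The word was searched on the mRNA strand of 3′ UTRs in GENCODE release 44. The canonical HMGA2 transcript (ENST00000403681) held 4 copies in a 3′ UTR of 2999 nt. Each is printed with the bases before it and 1 base after it, the word in capitals, on the plus strand of GRCh38:
HMGA2 site 1, chr12:65963293-65963320: ggggcgccaacgttcgatttCTACCTCa
HMGA2 site 2, chr12:65964526-65964555: aatatatccccactactcaataCTACCTCt
HMGA2 site 3, chr12:65964938-65964967: ggactaattgacttgcaaagacCTACCTCc
HMGA2 site 4, chr12:65965791-65965820: gttgtacaatcaaaacacactaCTACCTCt
Among genes that passed the filter, 10.7% of 10120 canonical 3′ UTRs held the word and 4 genes held 4 or more copies. Of the 4245 canonical 3′ UTRs between 1000 and 3500 nt, 11.3% held it, and 1 held 4 or more. Site 1 starts at base 21 of the 3′ UTR and is the one followed by A, the base that extends a seed site.

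The other 6 protein-coding HMGA2 transcripts with a 3′ UTR of at least 50 nt held 0 copies of CTACCTC. The longest of their 3′ UTRs (ENST00000541363, 7421 nt) stops at 65958854 on chromosome 12, before the first site. In the deposited table HMGA2 (ENSG00000149948) spans chromosome 12 from 65824460 to 65952536 and lists 10 transcripts, the canonical one included, whose end in GENCODE release 44 is 65966291. The counts are given per gene, so the share of HMGA2 reads from transcripts with and without the sites was not measured.

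The other genes held fewer copies, apart from IGF2BP1. The 3′ UTRs of HMGA1, LIN28A, IGF2BP2 and IGF2BP3 held 1 copy each, shown here because these are the candidate let-7 sites of the genes described below:
HMGA1, chr6:34245822-34245851, plus strand: ccatttttcctctgttcacaaaCTACCTCt
LIN28A, chr1:26427341-26427370, plus strand: ttggagtgcacagcctattgaaCTACCTCa
IGF2BP2, chr3:185644220-185644249, minus strand: cgagaaaaacacacagaagaagCTACCTCa
IGF2BP3, chr7:23311795-23311824, minus strand: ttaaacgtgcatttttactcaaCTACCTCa
IGF2BP1 held 4 copies in 6701 nt, 3 of them followed by A, where 31.1% of the longest 3′ UTRs between 5000 and 8000 nt among genes tested held at least 1, and 1 of 643 (0.156%) held 4 or more. A match is a description of the sequence and does not show that a site was used.

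**Figure D1:**
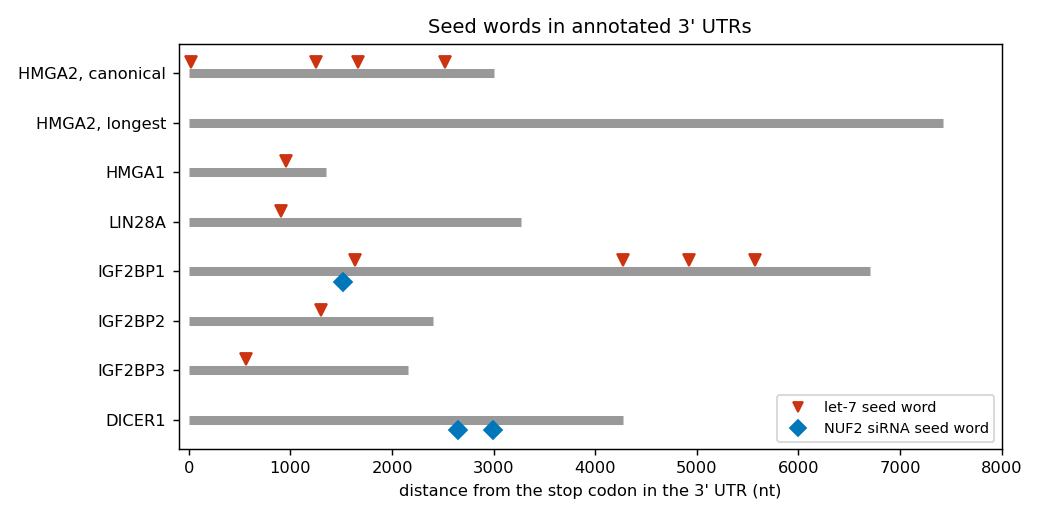
Positions of the let-7 seed word (red triangles) and of the word for the NUF2 siRNA seed (blue diamonds) along annotated 3′ UTRs (grey bars), with distance from the stop codon in nt on the x axis. The canonical HMGA2 3′ UTR of 2999 nt carries 4 let-7 words, the longest one of 7421 nt carries 0, and DICER1 carries 2 siRNA words and no let-7 word.

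NUF2, the targeted gene, checked the labels. Its FPKM was 14.8, 14.5 and 12.2 under siCtrl (replicates 1, 2 and 3) and 1.53, 2.05 and 1.56 under siNUF2. Of thyroid lineage markers, NKX2-1 was present at a mean FPKM of 18.3 over the 6 libraries and the other 8 with a row were below 1, PAX8 and TG included. The epithelial keratins KRT7, KRT8, KRT18 and KRT19 were present, while CDH1 and EPCAM were below 1. Of 12 markers of blood, stromal and endothelial cells, 11 had a row, 3 passed the filter and 0 were called, and the highest mean FPKM among them was 5.51. Libraries with the same number in both groups deviated together from their group means (correlation across genes 0.412 to 0.514), so the numbers pair the libraries. For other numbers the correlation was -0.292 to -0.131. Centring on group means makes these negative on balance where same-number ones are positive, so they are no separate evidence. What a number shares is not stated in the sources used here.

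The levels of the members spanned a wide range, which FPKM allows to be compared per length. HMGA1 was among the most abundant mRNAs, with a mean FPKM of 519 over the 6 libraries, at rank 45 of the 11725 genes tested. IGF2BP2 followed at 19.2, HMGA2 at 12.7 and IGF2BP3 at 3.81. The ranges of neighbours in this order, each over 6 libraries, did not overlap. IGF2BP1 and LIN28A were at or near 0. LIN28A had 4 counts in siCtrl library 1 and 0 in each of the other 5. IGF2BP1 had 8, 10 and 14 counts under siCtrl and 0, 7 and 5 under siNUF2. A count of 0 allows up to 3 counts per library, for counting error only, so no fold change is given for LIN28A. All 3 IGF2BP1 values were lower in siNUF2 cells, at counts too low for the filter, and no test is given.

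HMGA2 was present in every library and did not separate the groups. Its FPKM was 15.7, 8.63 and 12.0 in siCtrl libraries 1, 2 and 3. In siNUF2 libraries 1, 2 and 3 it was 17.2, 8.87 and 13.8. Libraries numbered 1 were highest, libraries numbered 2 lowest and libraries numbered 3 between them, in both groups. The siCtrl mean was 12.1 ± 3.51 (SD, n = 3) and the siNUF2 mean 13.3 ± 4.18 (SD, n = 3), 110% of the control level, with 10523 to 20039 counts behind each value. The log2 fold change was 0.15 (standard error 0.27, 95% interval -0.46 to 0.77, adjusted p = 0.825 by the quasi-likelihood F-test of edgeR, Benjamini-Hochberg adjusted over 11725 genes). The difference was smaller than the spread between replicates. The spread by number was among the values that led to the choice of HMGA2. This fit and the permutation test below take it as error, so their high p was in part set by the choice. An exact two-sided permutation test of HMGA2, which did not use the replicate numbers, gave p = 0.7, where 3 libraries against 3 cannot go below 0.1. The sign turned to -0.040 without siCtrl replicate 2, and to -0.065 without siNUF2 replicate 1. Each of these fits kept a replicate number in 1 group only, so its difference includes the spread by number.

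Within pairs of libraries of the same number, HMGA2 was higher in siNUF2 cells each time, by 0.14, 0.08 and 0.22 on the log2 scale of CPM (counts scaled to library size after TMM). In CPM all 3 pairs moved one way for each of the 4 members that passed the filter, and for 51.8% of the genes tested. For HMGA1 this rests on a difference of 0.0011 in the pair numbered 1, which on FPKM went the other way (597 under siCtrl, 595 under siNUF2). When edgeR was run with the number as a block, the log2 fold change of HMGA2 was 0.15 with a 95% interval of -0.01 to 0.30 (adjusted p = 0.190). Both intervals include 0.

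**Figure D2:**
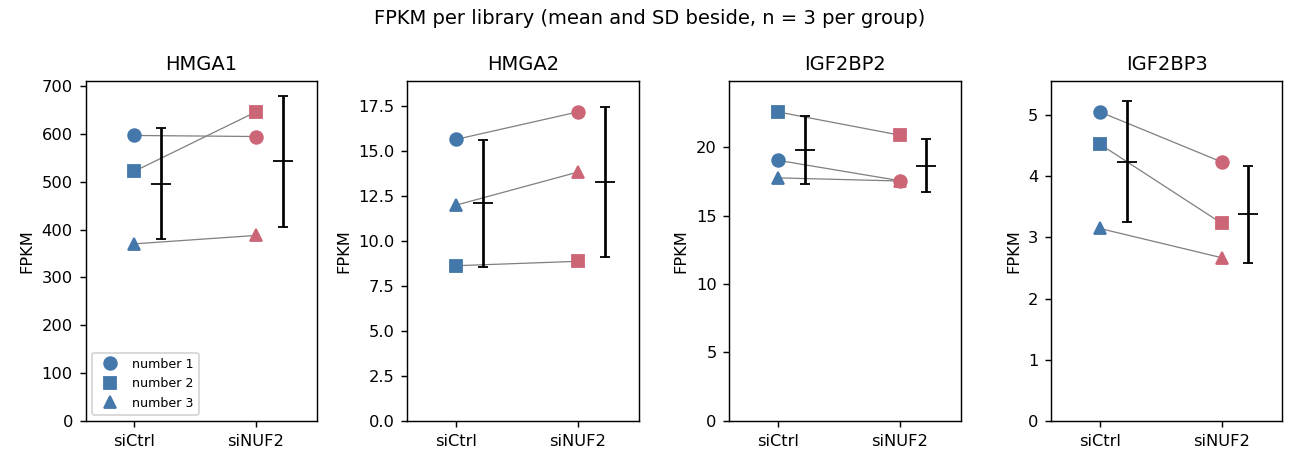
FPKM of the 4 members that passed the filter in each library, with siCtrl in blue and siNUF2 in red, marker shape for the replicate number, grey lines joining libraries of the same number, and the mean with its SD (n = 3) beside each group. For HMGA2 the 2 libraries numbered 2 sit lowest, at 8.63 and 8.87, and the 2 numbered 1 highest, at 15.7 and 17.2.

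The spread of HMGA2 by replicate number was one of the values that chose it, so it is described with no test. Averaged over both groups, HMGA2 had 286 CPM in libraries numbered 1, 154 in those numbered 2 and 227 in those numbered 3. The highest of these was 1.86 times the lowest, against 1.82 times within siCtrl alone and 1.90 times within siNUF2 alone. On FPKM it was 1.88 times. Over the genes tested the median of this ratio was 1.21 and the 95th percentile 1.94, and 5.96% of genes had a ratio as large as that of HMGA2 or larger. The order of the numbers seen for HMGA2 was found in both groups in 720 genes (6.14%).

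The other members had other orders. HMGA1 was lowest in libraries numbered 3, with a ratio of 1.56, and IGF2BP3 also, with a ratio of 1.58. IGF2BP2 was highest in libraries numbered 2, where HMGA2 was lowest, with a ratio of 1.23, near the median of all genes. The closest profiles to HMGA2, by the root mean square difference of centred log2 CPM over the 6 libraries, were those of IKBKGP1 (0.0434), FERMT1 (0.0527), LINC00973 (0.0848), IL27RA (0.0913) and ARMCX1 (0.0957). The median difference over the genes tested was 0.423, and it was 0.506 for HMGA1, 0.499 for IGF2BP2 and 0.455 for IGF2BP3. FERMT1, which encodes the focal adhesion protein kindlin-1, had FPKM of 7.19, 4.12 and 5.67 under siCtrl and 7.72, 3.83 and 6.06 under siNUF2. IKBKGP1 is a pseudogene that shares sequence with IKBKG, so its counts are uncertain.

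**Figure D3:**
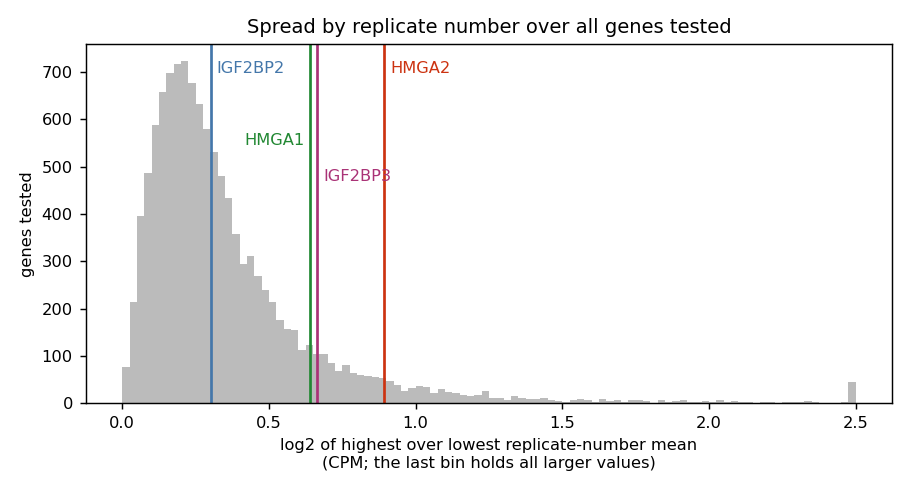
Histogram over the 11725 genes tested of the log2 ratio between the highest and the lowest replicate-number mean, each mean taken over the siCtrl and the siNUF2 library of that number, with vertical lines at the members. The ratio of HMGA2 (1.86) lies in the upper tail, those of IGF2BP3 (1.58) and HMGA1 (1.56) lie lower, and that of IGF2BP2 (1.23) is near the median of 1.21.

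Transcripts that overlap HMGA2 on the opposite strand were also counted, and whether the counting used strand is not stated, so reads of HMGA2 and of these genes cannot be told apart with certainty. HMGA2-AS1 had 202, 41 and 219 counts under siCtrl (replicates 1, 2 and 3) and 113, 49 and 125 under siNUF2. Its lowest values were in libraries numbered 2, as for HMGA2. RPSAP52 had 240, 899 and 103 counts under siCtrl and 191, 168 and 97 under siNUF2, so that siCtrl library 2 stood apart in the opposite direction to HMGA2 (log2 fold change -1.37, adjusted p = 0.346 from edgeR). Both had far fewer counts than HMGA2 in every library. HMGA1 has processed pseudogenes, of which HMGA1P3 had the most reads in total, 15 to 58 counts per library against 64016 to 120788 for HMGA1.

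HMGA1 (ENSG00000137309, chromosome 6 from 34236873 to 34246231, plus strand) had FPKM of 597, 522 and 370 in siCtrl libraries 1, 2 and 3. It had 595, 646 and 388 under siNUF2 in the same order. The libraries of the groups overlapped and both numbered 3 were lowest. The means were 496 ± 115 (SD, n = 3) and 543 ± 137 (SD, n = 3), and the log2 fold change was 0.15 (standard error 0.22, 95% interval -0.36 to 0.66, adjusted p = 0.791 from edgeR). The sign turned without siCtrl replicate 3 (-0.020) and without siNUF2 replicate 2 (-0.0027), both fits in which a same-number pair was incomplete. With the replicate block the log2 fold change of HMGA1 was 0.14, with a 95% interval of -0.03 to 0.32 (adjusted p = 0.248 from edgeR).

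IGF2BP2 (ENSG00000073792, chromosome 3 from 185643130 to 185825042, minus strand), whose transcription HMGA2 is known to promote, had the smallest spread by replicate number of the 4. Its FPKM was 19.04, 22.6 and 17.8 under siCtrl and 17.6, 20.9 and 17.5 under siNUF2. Again the groups overlapped. The means were 19.8 ± 2.50 (SD, n = 3) and 18.7 ± 1.93 (SD, n = 3). The log2 fold change was -0.06 (standard error 0.13, 95% interval -0.35 to 0.22, adjusted p = 0.848 from edgeR). Without siCtrl replicate 2, which left a same-number pair incomplete, it was 0.039. With the replicate block on all libraries it was -0.06, with a 95% interval of -0.22 to 0.10 (adjusted p = 0.584 from edgeR).

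IGF2BP3 (ENSG00000136231, chromosome 7 from 23310209 to 23470491, minus strand) had the largest difference of the 4. Its FPKM was 5.05, 4.52 and 3.15 under siCtrl and 4.23, 3.23 and 2.67 under siNUF2. Within each number the siNUF2 library was the lower one, yet the groups overlapped. The means were 4.24 ± 0.984 (SD, n = 3) and 3.38 ± 0.793 (SD, n = 3), 79.7% of the control level. The log2 fold change was -0.31 (standard error 0.22, 95% interval -0.81 to 0.19, adjusted p = 0.527 from edgeR). With the replicate block it was -0.31 with a 95% interval of -0.53 to -0.08, an unadjusted p of 0.0147 and an adjusted p of 0.0783, so it did not pass the threshold over all genes.

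By edgeR 0 of the 4 members had an adjusted p under 0.05, where 3.99% of all genes tested did. At an unadjusted p under 0.05 the count was also 0 in edgeR without the block, against 18.2% of all genes. In edgeR with the block the unadjusted p was 0.0147 for IGF2BP3, 0.0615 for HMGA2, 0.0957 for HMGA1 and 0.391 for IGF2BP2. The share of all genes at that level was not counted with the block. The other fits also called 0 members. The share of all genes they called was 14.5% with the replicate block, 3.88% with the size factors of DESeq2 in edgeR, 8.29% with DESeq2 itself, 0.57% with no filter and 5.27% at a mean FPKM of at least 5, where IGF2BP3 was not tested. It was 3.08% with limma on log2(FPKM + 1) and 2.97% on log2(FPKM + 0.1). In CPM, the libraries of the 2 groups overlapped for each of the 4 members, where they were separate for 24.1% of the genes tested. For HMGA2, chosen in part for its spread by number, this overlap was in part set by the choice. A p that misses the threshold does not show that the genes were unchanged, and the intervals above give the sizes that these libraries leave possible.

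**Figure D4:**
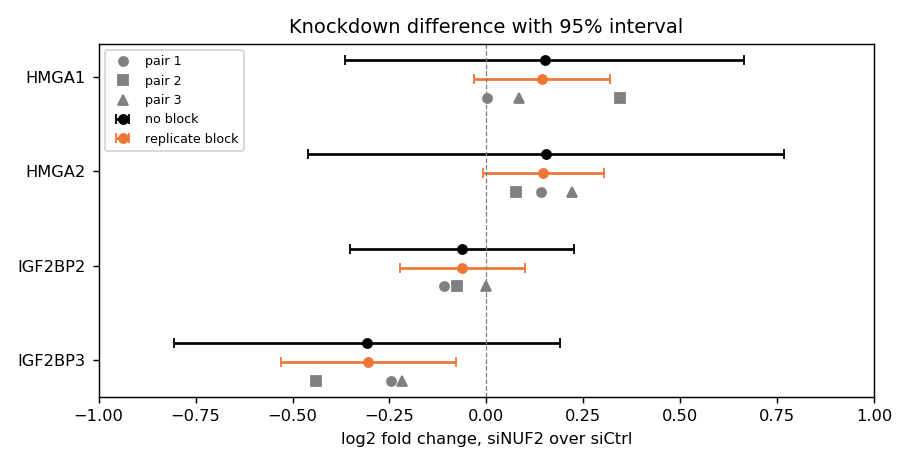
log2 fold change of siNUF2 over siCtrl for the 4 members, with 95% intervals from edgeR without a block (black) and with the replicate block (orange), and the difference within each same-number pair in grey. HMGA2 is at 0.15 in both fits, with an interval from -0.46 to 0.77 without the block and from -0.01 to 0.30 with it, and only the blocked interval of IGF2BP3 leaves out 0.

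Around the members, the let-7 maturation machinery held a clear difference in DICER1, which encodes the RNase that cuts let-7 precursors to their mature length. Its FPKM was 6.50, 6.80 and 6.80 under siCtrl and 2.81, 2.49 and 2.59 under siNUF2. The groups did not overlap, and DICER1 fell to 39.2% of the control level (6.70 ± 0.175 against 2.63 ± 0.165, SD, n = 3 each). On the log2 scale this was -1.33 (standard error 0.091, adjusted p = 9.9e-04 from edgeR), with a range of -1.37 to -1.30 over the fits that left out 1 library. Its ratio by replicate number was 1.01.

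DICER1 was the one gene called among 24 of this list, in either direction (4.17%, against 3.99% of all genes), and the median log2 fold change of the list was -0.06, against 0.01 over all genes. DROSHA, which makes the first cut of the primary transcript, was at 0.31 (adjusted p = 0.205 from edgeR), AGO2, which carries the guide strand, at -0.47 (0.149) and KHSRP, which promotes let-7 processing, at 0.26 (0.339). With the replicate block 4 genes were called (16.7%, against 14.5% of all genes), with DROSHA and KHSRP higher and DICER1 and AGO2 lower.

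**Figure D5:**
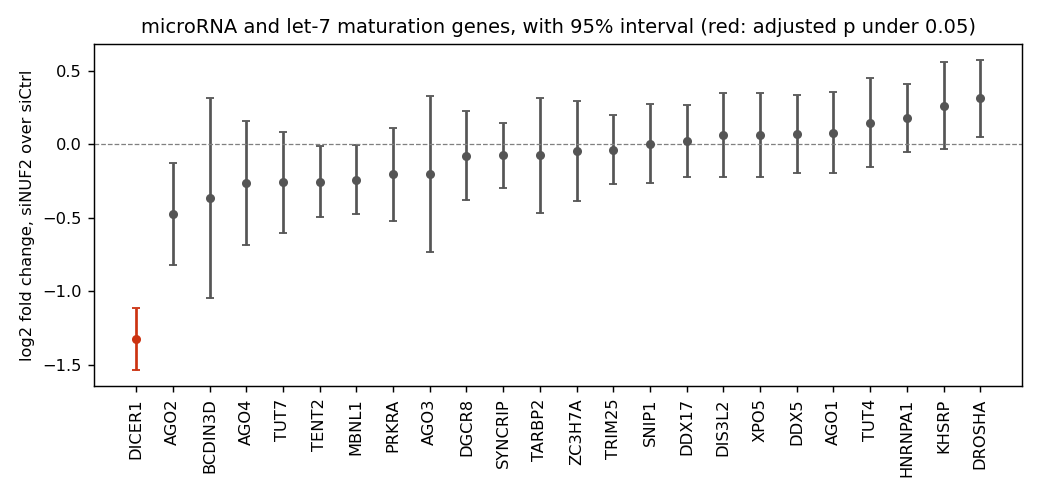
log2 fold change of siNUF2 over siCtrl with 95% intervals from edgeR for the 24 genes of microRNA and let-7 maturation, in order of the change. DICER1, in red, is the one gene with an adjusted p under 0.05, at -1.33, and the other 23 lie between -0.47 and 0.31.

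The 3′ UTR of DICER1 (4270 nt) held 0 copies of the let-7 word and 2 copies of TATGGAA, the seed match (guide bases 2 to 8) for the strand of the NUF2 siRNA that is antisense to its target. They are printed because DICER1 is the gene of the axis that moved, with the word in capitals on the minus strand of GRCh38:
DICER1 site 1, chr14:95087838-95087867: tgcaatgtgagaccgaatgtaaTATGGAAa
DICER1 site 2, chr14:95087502-95087531: tggccttgctgctgttttgattTATGGAAt
Of the 3′ UTRs between 3000 and 5500 nt, 6.11% held at least 2 copies. Over all 290 genes tested with 2 or more copies, 45 had an adjusted p under 0.05 and were lower and 6 were higher (17.6% in all), with a median log2 fold change of -0.17. Of all 10173 genes tested with a 3′ UTR 4.5% were called, and of the 8536 without the word 3.2% (156 higher and 117 lower). These shares were not matched for 3′ UTR length, and the word was more frequent in longer 3′ UTRs. With the replicate block 82 of the 290 were lower and 14 higher. The part of these sites in the fall of DICER1 was not tested. HMGA1, HMGA2, IGF2BP2, IGF2BP3 and LIN28A held 0 copies of TATGGAA, and IGF2BP1 held 1.

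Hosts of let-7 precursors are measured here only as transcripts, not as mature let-7. Of 12 listed, 9 had a row and 4 were tested. In edgeR 0 were called (3.99% of all genes), with 0 also at an unadjusted p under 0.05 (18.2% of all genes). With the block (14.5% of all genes) and with DESeq2 (8.29%) 0 were called as well. Beside these shares, a count of 0 among 4 genes says little about the hosts. WDR82, whose gene contains let-7g, had the highest level, with mean FPKM of 27.6 in siCtrl cells and 29.0 in siNUF2 cells (log2 fold change 0.09, adjusted p = 0.703). MIRLET7A1HG was at 2.74 and 2.43 (log2 fold change -0.15, adjusted p = 0.747 from edgeR). HUWE1, which holds let-7f-2 and miR-98, was at 21.2 and 20.9 (adjusted p = 0.996). Hosts below a mean FPKM of 1 were not tested. Among them MIR99AHG, whose gene contains let-7c, had 224, 292 and 303 counts under siCtrl and 392, 458 and 429 under siNUF2. Its mean FPKM was 0.101, and its groups did not overlap in CPM, as for 24.1% of the genes tested. For MIR100HG and MIRLET7BHG, also not tested, the groups overlapped.

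Known or proposed let-7 targets outside the 7 genes did not move one way. Of 55 listed, 38 were tested, 19 higher and 19 lower, with a median log2 fold change of 0.01, equal to that of all genes at this rounding. Of them 4 had an adjusted p under 0.05 (10.5%, against 3.99% of all genes). ZCCHC3, which encodes a nucleic acid sensor, rose from 6.44 ± 0.716 to 13.8 ± 1.43 FPKM (SD, n = 3 each), or 1.12 on the log2 scale (edgeR, adjusted p = 0.00655). DICER1 is also on this list. THBS1, encoding thrombospondin-1, fell from 59.0 ± 5.21 to 33.9 ± 1.48 FPKM (SD, n = 3 each, log2 fold change -0.78, adjusted p = 0.00693 from edgeR). CCND1, encoding cyclin D1, fell from 121 ± 6.57 to 77.7 ± 4.75 FPKM (SD, n = 3 each, log2 fold change -0.62, adjusted p = 0.0127 from edgeR), and its adjusted p was 0.0554 without siCtrl replicate 3 and 0.0615 without siNUF2 replicate 1. The 3′ UTR of ZCCHC3 held 1 let-7 word and no siRNA word, whereas THBS1 and CCND1 held 1 siRNA word each and no let-7 word. The part of the siRNA word in these falls was not tested.

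With the replicate block 13 of the 38 were called (34.2%, against 14.5% of all genes), 6 higher and 7 lower. Among the higher were MYC, CDC25A, CDK6, RRM2 and IGF1R, all growth or cell cycle genes, with log2 fold changes in that fit from 0.45 to 0.87. Among the lower was CDKN1A, the p21 inhibitor of cyclin-dependent kinases, at -0.94.

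Over the table as a whole, genes were also grouped by let-7 words in the longest 3′ UTR. By this rule HMGA2 fell among the genes without the word, since its longest 3′ UTR held 0 copies and its canonical one 4. The 1182 genes with at least 1 word had a median log2 fold change of 0.01, the 144 with at least 2 words one of 0.01, and the 8991 without the word one of 0.0004. Of the 144 genes, 1 was called higher and 5 lower (4.17%, against 4.5% of all with a 3′ UTR). With the replicate block 12 were higher and 12 lower. The ratio of libraries numbered 1 to those numbered 2, in which HMGA2 differed most, had a median of -0.03 on the log2 scale in the 144 genes and of 0.002 over all with a 3′ UTR.

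Genes placed downstream of HMGA2 by earlier work, other than IGF2BP2, were 13, of which 12 were tested. In edgeR 0 were called (3.99% of all genes), with 3 of the 12 at an unadjusted p under 0.05 (18.2% of all genes). CCNA2, a cyclin gene that HMGA2 is known to activate, was at a log2 fold change of 0.08 (adjusted p = 0.764), and SNAI1, SNAI2 and TWIST1, which drive the mesenchymal state, were at 0.12, 0.31 and 0.04. VIM was the most abundant of them, with a mean FPKM of 479 (log2 fold change -0.10, adjusted p = 0.622 from edgeR). With the block 3 were called (25.0%, against 14.5% of all genes), CDKN2A at 0.44 and PLAG1 at 0.54 higher and JUNB at -0.47 lower, and DESeq2 called 1 of the 12 (8.29% of all genes).

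RNAs that IGF2BP proteins are known to bind or that share their granules were 22, with 18 tested, 9 higher and 9 lower. In edgeR 0 were called (3.99% of all genes), with 3 of the 18 at an unadjusted p under 0.05 (18.2% of all genes). IGF2, which gave the family its name, was listed near 0, with mean FPKM of 0.00502 and 0.0198. ACTB, the most abundant of the list, was at a mean FPKM of 793 (log2 fold change 0.21, adjusted p = 0.387 from edgeR). CD44, the hyaluronan receptor, had the largest fall, from 76.6 ± 13.0 to 44.2 ± 9.50 FPKM (SD, n = 3 each), with a log2 fold change of -0.77 and an adjusted p of 0.0551 from edgeR, and its 3′ UTR held 2 siRNA words. With the block 4 were called (22.2%, against 14.5% of all genes), CD44 and FSCN1 lower and MYC and CDK6 higher, and DESeq2 called 3 of the 18 (8.29% of all genes).

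KDM2A encodes a demethylase of histone H3 lysine 36. It is named because the study cites earlier work in renal cancer, in which NUF2 affected HMGA2 expression through demethylation by KDM2A. Its FPKM was 4.85, 5.06 and 5.11 under siCtrl and 9.24, 6.19 and 7.76 under siNUF2. The groups did not overlap, and the log2 fold change was 0.64 (adjusted p = 0.0455 from edgeR), beside one of 0.15 for HMGA2. The adjusted p of KDM2A was 0.0264 without siNUF2 replicate 2. It was between 0.109 and 0.153 without any one of the other 5 libraries, so its call was lost in those fits, which have fewer libraries and an incomplete pair. In edgeR with the replicate block on all libraries, it was 0.63 (95% interval 0.36 to 0.89, adjusted p = 0.0126) on the log2 scale, where 14.5% of all genes tested were called.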

How the data were processed

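RNA-seq of 8505C cells was analysed in 3 siCtrl and 3 siNUF2 libraries, grouped by their titles. Per the labels, the authors used fastp for trimming, HISAT2 for alignment (GRCh38) and StringTie for expression. They deposited whole-number counts and FPKM for each gene and library, and all 12 columns were used. Versions, annotation release, strand setting and the counting tool are not given in the sources used here. Genes were kept at a mean FPKM of 1 or more (11725), and their counts were scaled by TMM and tested with edgeR 4.0.16 (quasi-likelihood, Benjamini-Hochberg adjusted p under 0.05) in R 4.3.3. Alternatives were the replicate block, DESeq2 1.42.0 and its size factors, limma 3.58.1 on log2(FPKM + 1) or log2(FPKM + 0.1), other filters, and leaving out each library. log2 CPM carried a pseudocount of 0.5. Code was tested on simulated counts. Same-number libraries deviated together, each pair above a correlation of 0.1, so the numbers were taken to pair them. Columns headed KD were matched to siNUF2 by the genotype label and number. Depth was 61257859 to 69755291 counts per library.

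Words were counted in the longest 3′ UTR of at least 50 nt per gene in GENCODE release 44, and the canonical transcript was added after the values were seen. The members and lists were chosen with earlier results of these data known. The genes named are the members, NUF2, KDM2A, from each list those called (or the most abundant where 0 were), and the 5 closest to HMGA2. Others, and genes called with the block alone, were named after their values were seen. The siRNA sequence is not printed here.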

Additional observations from a re-analysis of the deposited data

How the results depend on the processing

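The count of members called was 0 in every alternative, and the replicate block changed no call of a member. The log2 fold change of HMGA2 was between -0.065 and 0.38 with each library left out, negative without siCtrl replicate 2 (-0.040) or siNUF2 replicate 1 (-0.065), and between 0.12 and 0.16 in the other alternatives. HMGA1 ranged from -0.020 (without siCtrl replicate 3) to 0.34 and was -0.0027 without siNUF2 replicate 2. IGF2BP2 ranged from -0.16 to 0.039 (without siCtrl replicate 2). Leaving out a library breaks a same-number pair, so these ranges include the spread by replicate number. The ratio of HMGA2 by replicate number was 1.77 to 1.95 with each library left out. Genes called over the whole table numbered 468, against 972 with DESeq2, 188 with no filter, 1705 with the replicate block and 124 to 251 with each library left out, where fewer samples remain.

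Of let-7 targets, 4 were called (3 to 6 with each library left out), against 10 with DESeq2 and 13 with the replicate block. Of maturation genes, 1 was called, against 2 with DESeq2, 4 with the block and 0 at a mean FPKM of 5, where DICER1 was not tested, like IGF2BP3. Genes downstream of HMGA2 went from 0 to 1 with DESeq2 and 3 with the block, and IGF2BP-bound RNAs from 0 to 3 with DESeq2, 1 at a mean FPKM of 5, 4 with the block and 0 to 1 with each library left out. DICER1 stayed called in each alternative that tested it. The 2 members near 0 are limited by depth.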
